A study of Mus musculus with 24 samples.

Results

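The 10 genes described here encode paralogous subunits of the BAF complex, the mammalian SWI/SNF chromatin remodeller, that are exchanged when pluripotent cells become neural cells. They were chosen by name as pairs of paralogs, and were Smarca4 and Smarca2, Smarcc1 and Smarcc2, Smarcd1 and Smarcd3, Actl6a and Actl6b, and Phf10 and Dpf1. All 10 were found among the 51912 genes of the RNA-seq count tables. The study asked which transcription factors change DNA methylation around their motifs in mouse cells, and RNA-seq served to read gene expression in the same cell types. The groups were wild type embryonic stem cells (ESCs) of the strain C57BL/6 X 129S5, neuronal progenitors (NPs) obtained from ESCs of that genotype and strain through cellular aggregates and retinoic acid, and ESCs with a TET1/2/3 triple knockout (TET TKO ESCs) of the strain C57BL/6 X 129/sv, with 3 libraries each. TET TKO ESCs are therefore a separate line, and knockout, strain and line cannot be told apart in their comparison with ESCs. Libraries held 20570050 to 23976914 counts in ESCs, 20519702 to 22132988 in NPs and 80704741 to 93210102 in TET TKO ESCs.

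The BAF complex uses the energy of ATP to slide or evict nucleosomes. It holds a single ATPase at a time, either SMARCA4 (also called BRG1) or SMARCA2 (also called BRM), on a scaffold of SMARCC and SMARCD proteins, with an actin-related subunit and a subunit with PHD fingers attached. ESCs are known for a form built on SMARCA4 and SMARCC1, neural progenitors take up SMARCA2 and SMARCC2 but keep ACTL6A and PHF10, and neurons that have left the cell cycle replace the latter with ACTL6B and DPF1.

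The cell types were first checked by marker genes. In NPs all 7 ESC markers fell, among them Pou5f1 from 388, 415 and 376 RPKM (reads per kilobase of exon, scaled to library size) in ESCs to 0.94, 1.85 and 0.48, and all 7 progenitor markers rose, among them Pax6 from 0.37, 0.329 and 0.351 to 13.0, 13.2 and 18.0. NP libraries also held RNA of genes listed as markers of other cell types. Of 9 neuron markers 6 rose, among them Dcx to 8.74, 4.69 and 9.59 RPKM, while Stmn2 fell, and of 5 endoderm markers 3 rose, with Foxa2 the most abundant at 10.7, 8.42 and 11.1. The glial genes Gfap and Aqp4 read at most 0.107 RPKM in every NP library and S100b had 0 counts in each. In TET TKO ESCs, 1 of 7 ESC markers passed the test, Zfp42, which fell from 309, 298 and 306 RPKM to 42.7, 46.0 and 63.2. Tet1 read 65.9, 60.8 and 68.5 RPKM in ESCs and 13.2, 16.1 and 11.3 in TET TKO ESCs, Tet2 20.5, 20.3 and 16.1 against 2.42, 2.7 and 2.32, and Tet3 0.746, 0.631 and 0.77 against 0.561, 0.617 and 0.474. Tet1 and Tet2 fell in TET TKO ESCs, and Tet3 was too low for the test. Reads from exons outside a deletion still count, so these values check the label only in part.

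Promoter sequences (250 bases before to 50 after the RefSeq gene start, build GRCm38.p6) are shown for the members with the largest differences between ESCs and NPs and for the actin-related pair, 5′ to 3′ on the strand of the gene, with every CG in capitals because CG is the site of DNA methylation in this study's setting. RefSeq promoters matched all 10 members. The windows are chr19:26604910-26605209 (+) for Smarca2, chr10:128458986-128459285 (+) for Smarcc2, chr3:32708296-32708595 (+) for Actl6a and chr5:137553296-137553595 (+) for Actl6b.
Smarca2: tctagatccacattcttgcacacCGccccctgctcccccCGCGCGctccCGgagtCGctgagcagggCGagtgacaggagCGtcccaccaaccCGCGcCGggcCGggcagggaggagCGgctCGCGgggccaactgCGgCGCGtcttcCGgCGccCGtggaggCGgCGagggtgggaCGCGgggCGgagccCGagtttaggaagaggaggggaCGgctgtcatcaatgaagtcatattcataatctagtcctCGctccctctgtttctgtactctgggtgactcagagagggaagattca
Smarcc2: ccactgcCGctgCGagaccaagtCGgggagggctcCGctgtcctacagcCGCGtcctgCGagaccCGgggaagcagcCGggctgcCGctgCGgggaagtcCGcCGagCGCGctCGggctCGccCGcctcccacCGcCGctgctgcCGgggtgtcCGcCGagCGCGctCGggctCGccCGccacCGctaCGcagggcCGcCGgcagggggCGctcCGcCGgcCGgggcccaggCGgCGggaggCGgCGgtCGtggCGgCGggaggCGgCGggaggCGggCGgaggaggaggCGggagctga
Actl6a: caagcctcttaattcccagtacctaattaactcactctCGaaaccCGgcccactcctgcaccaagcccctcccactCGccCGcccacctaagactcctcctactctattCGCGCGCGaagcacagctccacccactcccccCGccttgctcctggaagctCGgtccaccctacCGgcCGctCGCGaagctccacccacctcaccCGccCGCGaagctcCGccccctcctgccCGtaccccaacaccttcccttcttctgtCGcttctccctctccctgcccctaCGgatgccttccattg
Actl6b: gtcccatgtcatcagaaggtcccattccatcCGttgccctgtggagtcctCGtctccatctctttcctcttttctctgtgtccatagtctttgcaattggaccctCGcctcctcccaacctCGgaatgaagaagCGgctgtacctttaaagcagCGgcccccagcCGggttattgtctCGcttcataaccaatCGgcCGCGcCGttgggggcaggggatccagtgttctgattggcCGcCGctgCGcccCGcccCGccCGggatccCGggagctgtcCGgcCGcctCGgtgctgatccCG

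The 4 windows held 29, 48, 21 and 23 CG, against a median of 7 over 32851 promoters of the same length, of which 94.6% hold at least 1 CG. Among the other members the number ran from 33 in Smarca4 and in Smarcc1 to 62 in Phf10, so that all 10 promoters were rich in CG whether the gene was high or near 0 in ESCs. Actl6b, silent or nearly so in ESCs, had more CG in its window than 78.5% of all promoters. Letters of the REST motif were searched on both strands, because REST is known to repress neuronal genes outside the nervous system. Its left part, TTCAGCACC, was in 0 of 10 member promoters and in 0.371% of all promoters, and its right part, GGACAGC, was in those of Smarcc2 and Actl6b and in 6.56% of all. A match of this length describes the letters and is no evidence of binding.

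For the ATPases, Smarca4 (ENSMUSG00000032187, chromosome 9, 21616169 to 21704230 on GRCm38) read 71.4, 73.1 and 73.2 RPKM in ESCs, 124, 90.3 and 88.8 in NPs, and 85.1, 77.8 and 62.4 in TET TKO ESCs. Smarca2 (ENSMUSG00000024921, chromosome 19, 26605050 to 26778322) read 0.333, 0.369 and 0.211 RPKM in ESCs, 2.55, 3.49 and 2.09 in NPs, and 0.353, 0.464 and 0.516 in TET TKO ESCs. Every NP library lay above every ESC library for both ATPases, whereas TET TKO ESCs and ESCs overlapped for both. Smarca2 rose in NPs by 3.14 ± 0.28 on the log2 scale (SE, edgeR quasi-likelihood test, adjusted p = 2.64e-05), an 8.81-fold difference. It was tested only because of its NP level, since genes entered the test with at least 1 RPKM in at least 1 library of the groups compared, and for the same reason it was not tested in TET TKO ESCs. Smarca4 had a log2 fold change of 0.46 ± 0.14 in NPs (adjusted p = 0.0194), which did not pass the limit of 0.001 used by the study. It was 0.28 without NP replicate 1, and the adjusted p was 0.0683, 0.063 and 0.0597 without ESC replicates 1, 2 and 3. In TET TKO ESCs the log2 fold change of Smarca4 was -0.07 ± 0.12 (adjusted p = 0.689). There the sign turned to 0.05 without TET TKO replicate 3 and to 0.04 without the filter.
In level per length, Smarca4 remained far above Smarca2 in all 9 libraries. Smarca2 made up 0.418% ± 0.115 (SD, n = 3) of the summed RPKM of the ATPase pair in ESCs, against 2.68% ± 0.917 in NPs; in TET TKO ESCs it was 0.609% ± 0.204.

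The scaffold subunits SMARCC1 and SMARCC2 form the dimer on which the complex assembles. Smarcc1 (ENSMUSG00000032481, chromosome 9, 110117708 to 110240178) read 61.2, 62.7 and 69.1 RPKM in ESCs, 63.8, 52.4 and 59.8 in NPs, and 67.6, 66.8 and 66.4 in TET TKO ESCs, with NPs and TET TKO ESCs each overlapping ESCs. Smarcc2 (ENSMUSG00000025369, chromosome 10, 128459248 to 128490482) read 8.45, 8.84 and 8.78 RPKM in ESCs, 39.4, 28.7 and 36.4 in NPs, and 12.0, 9.99 and 11.8 in TET TKO ESCs. The NP libraries of Smarcc2 stood apart from both kinds of ESCs, and those of TET TKO ESCs lay slightly above ESCs without overlap. Smarcc2 rose in NPs by 1.99 ± 0.14 on the log2 scale (adjusted p = 8.63e-06), or 3.98-fold, and had a log2 fold change of 0.26 ± 0.11 in TET TKO ESCs (adjusted p = 0.111). Smarcc1 did not pass the test in either comparison, with log2 fold changes of -0.15 ± 0.11 in NPs (adjusted p = 0.294) and -0.06 ± 0.09 in TET TKO ESCs (adjusted p = 0.607; 0.05 without the filter). The sign in TET TKO ESCs is opposite to that of the mean RPKM for Smarcc1 as for Smarca4, because RPKM and the fit scale libraries differently. The share of Smarcc2 in the summed RPKM of the pair went from 11.9% ± 0.577 in ESCs to 37.1% ± 1.5 in NPs (SD, n = 3), and was 14.4% ± 1.2 in TET TKO ESCs.

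SMARCD subunits link the complex to transcription factors. Smarcd1 (ENSMUSG00000023018, chromosome 15, 99702287 to 99713995) read 85.3, 87.3 and 80.2 RPKM in ESCs, 103, 79.9 and 85.2 in NPs, and 91.2, 80.1 and 63.1 in TET TKO ESCs, with all groups overlapping. Smarcd3 (ENSMUSG00000028949, chromosome 5, 24590818 to 24624411), best known from heart and muscle, read 1.01, 0.966 and 1.19 RPKM in ESCs, 2.05, 1.86 and 2.07 in NPs, and 0.489, 0.347 and 0.308 in TET TKO ESCs. Its 3 groups did not overlap, with NPs highest and TET TKO ESCs lowest. The differences did not reach the limit of 0.001, with a log2 fold change of 0.9 ± 0.2 in NPs (adjusted p = 0.00445) and of -1.59 ± 0.26 in TET TKO ESCs (adjusted p = 0.00385). By DESeq2 both passed it (adjusted p = 9.76e-05 and 7.05e-07). In the comparison with TET TKO ESCs, Smarcd3 was tested only because of its ESC level and was not tested without ESC replicate 3. Of the exon bases of Smarcd3, 48.2% are shared with Chpf2 and a microRNA gene on the opposite strand, and since reads were counted without strand and reads in exons of more than 1 gene were not assigned, the level of Smarcd3 is uncertain and likely understated. For Smarcd1 the log2 fold changes were 0.07 ± 0.12 in NPs (adjusted p = 0.623, and -0.05 without NP replicate 1) and -0.23 ± 0.14 in TET TKO ESCs (adjusted p = 0.234). The Smarcd1 value in TET TKO ESCs was -0.1 without TET TKO replicate 3 and -0.36 without TET TKO replicate 1.

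ACTL6A, the actin-related subunit of dividing cells, had high expression in both kinds of ESCs. Actl6a (ENSMUSG00000027671, chromosome 3, 32706298 to 32726973) read 62.3, 68.0 and 62.2 RPKM in ESCs, 29.5, 31.6 and 36.1 in NPs, and 60.8, 64.9 and 52.8 in TET TKO ESCs. All NP libraries lay below all others, and TET TKO ESCs overlapped with ESCs, though not with library sizes scaled as in the fit. Actl6a fell in NPs with a log2 fold change of -1.0 ± 0.12 (adjusted p = 0.000128), a 2.0-fold difference, and had a log2 fold change of -0.23 ± 0.1 in TET TKO ESCs (adjusted p = 0.126). The call in NPs rested on each of 2 ESC libraries: the adjusted p was 0.00107 without ESC replicate 1 (log2 fold change -1.01) and 0.00104 without ESC replicate 2 (log2 fold change -0.96), in a range from 6.97e-16 to 0.00107 over the 12 alternative fits. In these bulk libraries, fewer cells with Actl6a and less Actl6a RNA per cell cannot be told apart.

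Actl6b (ENSMUSG00000029712, chromosome 5, 137553517 to 137569582), the neuronal counterpart, was close to absent in ESCs. It had 1, 2 and 1 counts in ESCs, 67, 11 and 29 in NPs, and 1, 1 and 0 in TET TKO ESCs, where a count of 0 allows up to 3. This corresponds to 0.011, 0.0215 and 0.00953 RPKM in ESCs and 0.737, 0.106 and 0.293 in NPs. NP libraries lay above all ESC libraries but spread widely, with NP replicate 1 highest and NP replicate 2 lowest. Per total count, Actl6b was 27.7 times higher in NPs (107 counts) than in ESCs (4 counts), with a 95% interval of 10.5 to 104.0 (exact binomial) that covers counting error only and not the spread between libraries. NP replicate 1 holds 67 of the 107 counts, and without it the ratio was 15.3. Below 1 RPKM in every library, it did not enter the test; the fit without a filter, the only fit that held Actl6b, gave a log2 fold change of 4.64 ± 0.73 in NPs (adjusted p = 4.27e-06). No fold is given for TET TKO ESCs, as both groups were at or under the floor of 3 counts per library. Even in NPs the Actl6b level was a small fraction of that of Actl6a, at 1.19% ± 1.1 of the summed RPKM of the pair (SD, n = 3).

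PHF10 is the subunit with PHD fingers of proliferating cells, and DPF1 its neuronal counterpart. Phf10 (ENSMUSG00000023883, chromosome 17, 14945009 to 14961273) read 10.6, 10.8 and 13.3 RPKM in ESCs, 16.0, 20.1 and 19.2 in NPs, and 22.6, 19.1 and 18.6 in TET TKO ESCs. Dpf1 (ENSMUSG00000030584, chromosome 7, 29303951 to 29318243) read 5.32, 5.23 and 4.67 RPKM in ESCs, 3.07, 1.49 and 2.32 in NPs, and 3.55, 3.99 and 1.17 in TET TKO ESCs. Phf10 was thus higher and Dpf1 lower in every NP and every TET TKO library than in any ESC library. Dpf1, known as a neuronal gene, was highest in ESCs. By edgeR Phf10 missed the limit of 0.001, with log2 fold changes of 0.66 ± 0.14 in NPs (adjusted p = 0.00298) and 0.68 ± 0.13 in TET TKO ESCs (adjusted p = 0.00648). In DESeq2 it passed in both (adjusted p = 0.000159 and 4.66e-05). For Dpf1 the log2 fold change was -1.16 ± 0.26 in NPs (adjusted p = 0.00404, or 5.03e-05 by DESeq2) and -0.93 ± 0.4 in TET TKO ESCs (adjusted p = 0.11), where replicate 3 was below the other libraries and the value was -0.55 without it. Dpf1 made up 30.7% ± 4.03 of the summed RPKM of its pair in ESCs (SD, n = 3), against 11.3% ± 4.61 in NPs. In TET TKO ESCs its share was 12.3% ± 5.78. The pair leaves out Dpf2 and Dpf3, relatives of Dpf1 that were both higher in every NP library than in any ESC library. Dpf2 read 16.6, 16.5 and 16.4 RPKM in ESCs and 26.0, 20.3 and 21.2 in NPs. Dpf3 read 0.178, 0.119 and 0.231 in ESCs and 1.74, 1.73 and 0.695 in NPs.

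**Figure D1:**
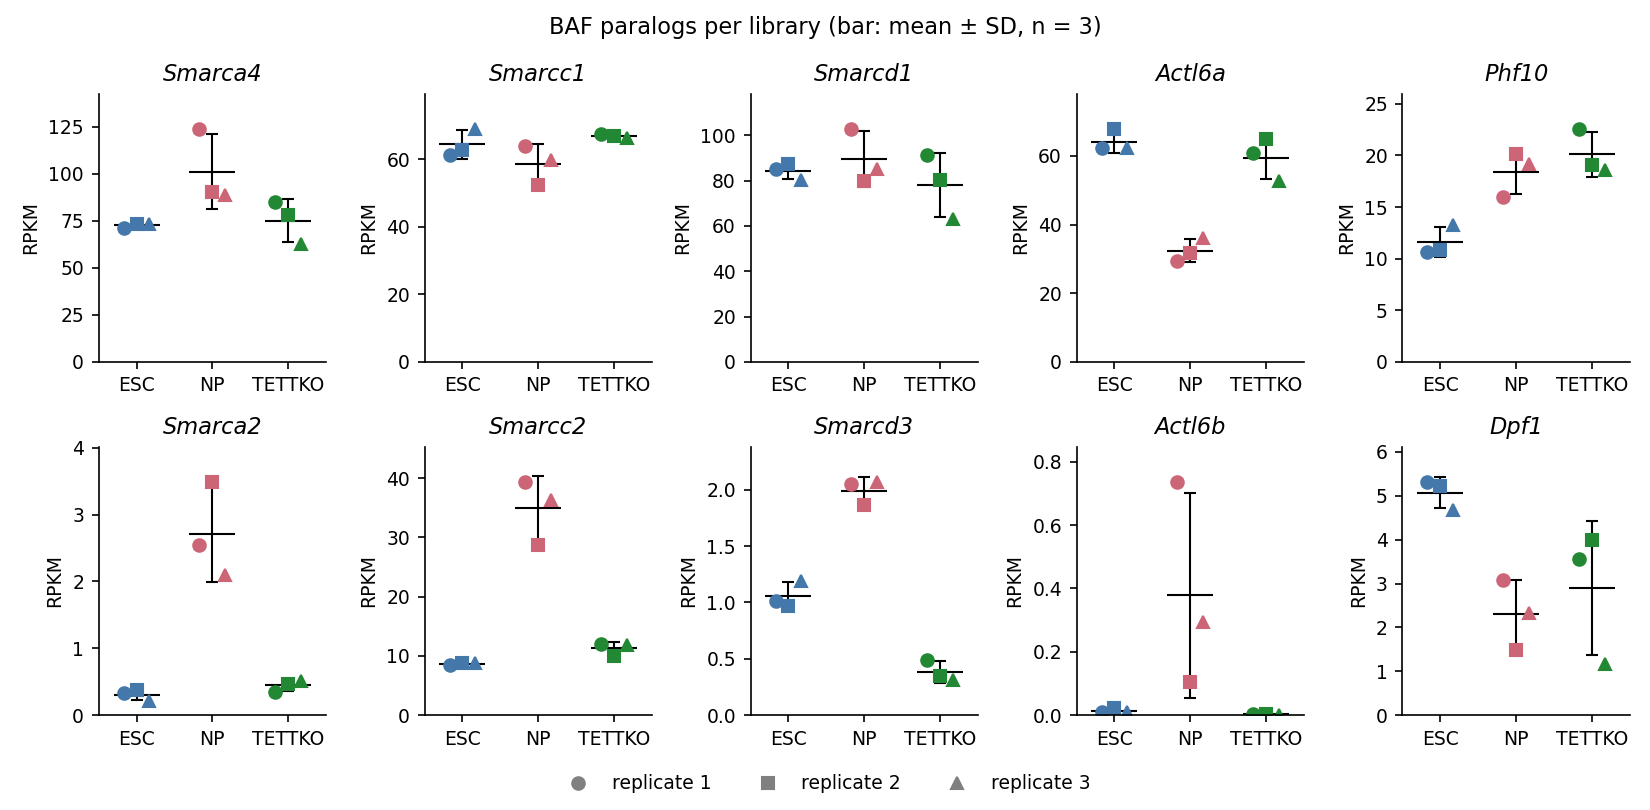
RPKM (y axis, from 0) of the 10 members in each library of ESCs, NPs and TET TKO ESCs (TETTKO on the axis), with symbols for replicates and bars for mean ± SD (n = 3). Smarca2, Smarcc2 and Actl6b are highest in the NP libraries and Actl6a is lowest there, at 29.5 to 36.1 RPKM against 52.8 to 68.0 in the other libraries.

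Taken over the list, 9 of 10 members entered the test in NPs, and 3 of them passed it. Smarca2 and Smarcc2 rose, beside 17.8% of the 15197 genes tested that were called higher, and Actl6a fell, beside 16.2% called lower. With a fold change of at least 3 in addition, the study's own call, 2 members were higher and 0 lower, beside 12.4% and 9.98% of all genes. At an adjusted p limit of 0.05, 5 members were higher and 2 lower, beside 32.5% and 31.5%. Smarca4, among the higher, did not pass 0.05 when any 1 ESC library was left out. The ranges of the ESC and NP libraries did not overlap for 5 tested members that were higher and 2 that were lower, as for 36.3% and 35.6% of all genes. At the limit of 0.001 the share in the list is near that of genes at large. Whether the list differs from genes at large was not tested, and the members were not drawn at random. DESeq2 called 6 members at the limit of 0.001, adding Smarcd3, Phf10 and Dpf1, beside 7471 of 15197 genes. Without a filter edgeR called 6 members, adding Actl6b, Phf10 and Dpf1, beside 8012 of 31654 genes.

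In TET TKO ESCs, 0 of 8 members tested passed the edgeR test, beside 1.69% of 13939 genes called higher and 1.58% called lower. Likewise 0 met the study's call, beside 0.847% and 1.29%. Calls over all genes at the limit of 0.001 were 456, of which 51.8% were higher. They were 50, 58 and 70 without ESC replicates 1, 2 and 3, of which 24.0%, 25.9% and 30.0% were higher. At an unadjusted p under 0.05 there were 4 members, beside 6280 of 13939 genes, and DESeq2 called 2 at an adjusted p under 0.001, Smarcd3 and Phf10, beside 2860 of 13939. At an adjusted p limit of 0.05, Phf10 was higher and Smarcd3 lower, beside 17.6% and 16.0% of all genes. The libraries did not overlap for 2 tested members that were higher and 2 that were lower, as for 32.2% and 19.6% of all genes. These counts depend on scaling: RPKM are scaled on all genes of all 9 libraries and the fit on the tested genes of the 6 libraries it compares, which put the log2 ratio of TET TKO ESCs to ESCs higher by 0.12 in RPKM than in the fit (median of 13939 genes). With library sizes scaled as in the fit, an alternative chosen after the data were seen, 2 members were higher and 3 lower, Actl6a being added, beside 25.4% and 25.4% of all genes. Both comparisons use the same ESC libraries and are therefore given side by side only. Whether a member differed more in NPs than in TET TKO ESCs was not tested.

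Because a ratio of paralogs within a library does not depend on how libraries are scaled, the exchange was also read as the log2 ratio of RPKM within each library. For Smarcc2/Smarcc1 it was -2.86, -2.83 and -2.98 in ESCs, -0.7, -0.87 and -0.71 in NPs, and -2.49, -2.74 and -2.5 in TET TKO ESCs. For Smarca2/Smarca4 it was -7.74, -7.62 and -8.43 in ESCs, -5.61, -4.69 and -5.41 in NPs, and -7.91, -7.39 and -6.92 in TET TKO ESCs. For Actl6b/Actl6a it was -11.88, -11.31 and -12.09 in ESCs and -5.31, -8.16 and -6.92 in NPs. In each of these 3 pairs the NP ratio was higher in all 3 libraries, yet it stayed below 0, so that the member typical of ESCs remained the more abundant one. The NP mean exceeded the ESC mean by 2.13 for Smarcc2/Smarcc1, by 2.7 for Smarca2/Smarca4, by 4.96 for Actl6b/Actl6a and by 0.84 for Smarcd3/Smarcd1, whereas the difference was -1.88 for Dpf1/Phf10. The ESC side of Actl6b/Actl6a rests on 1, 2 and 1 counts of Actl6b, under the floor of 3, and the difference was 5.32 with 0.1 and 4.63 with 1 added to counts in place of 0.5. The exact two-sided permutation test gave p = 0.1 for each of the 5 pairs, the smallest p that 3 against 3 libraries allow. In these libraries the NP ratio lay toward the member named for neural cells or, for Smarcd3, for differentiated cells in 4 pairs. It lay in the other direction in 1, Dpf1/Phf10, a pair that leaves out Dpf2 and Dpf3. As no pair could give a smaller p, these directions describe the libraries only. How often other pairs of genes differ in this way was not tested.
In TET TKO ESCs the differences from ESCs were 0.53 for Smarca2/Smarca4 with overlapping libraries (exact permutation p = 0.3; 0.28 to 0.78 when a library was left out), and 0.31 for Smarcc2/Smarcc1, -1.37 for Smarcd3/Smarcd1 and -1.79 for Dpf1/Phf10 without overlap (exact permutation p = 0.1 each). The value of -2.45 for Actl6b/Actl6a rests on at most 2 counts of Actl6b per library and on the 0.5 added to counts, and it was -3.14 with 0.1 added and -2.21 with 1 added. TET TKO libraries also hold far more counts in all, so equal counts of Actl6b would give a negative value by themselves. No direction is read from it.

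**Figure D2:**
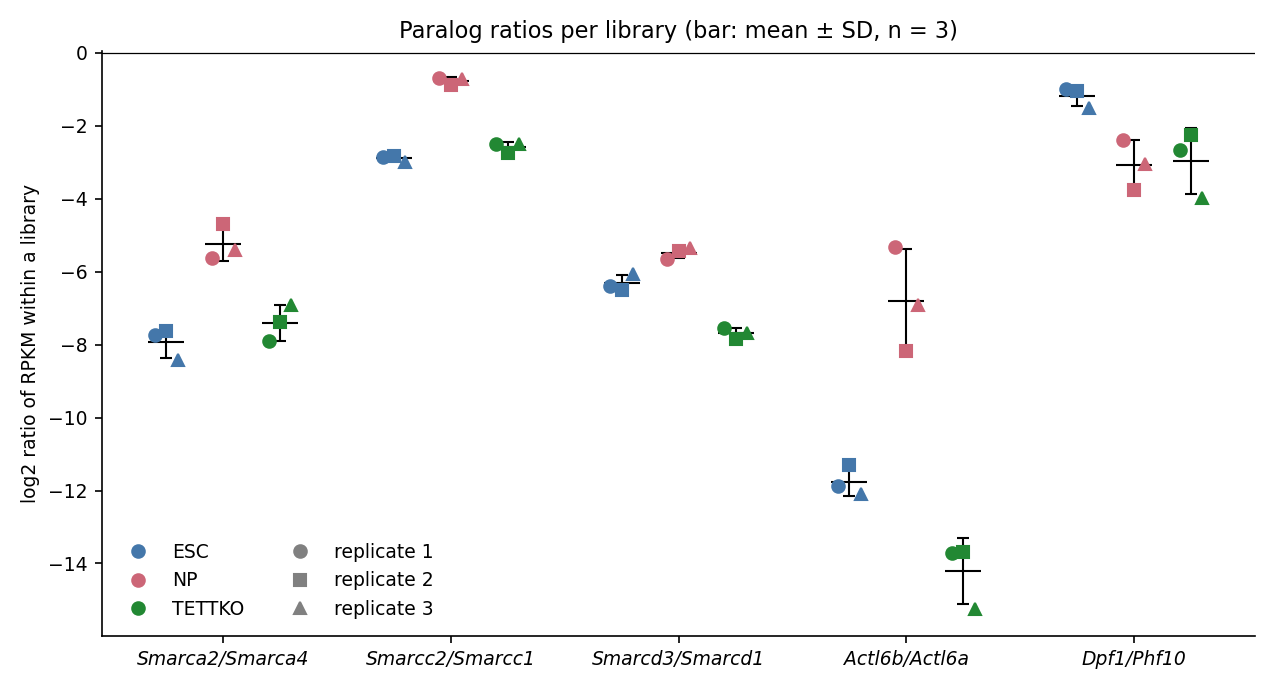
Log2 ratio of RPKM within a library (y axis) for 5 pairs of paralogs in ESCs, NPs and TET TKO ESCs (TETTKO), with symbols for replicates and bars for mean ± SD (n = 3). All ratios lie below 0, and NP libraries lie above ESC libraries in 4 pairs and below them for Dpf1/Phf10.

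The NP libraries differed among themselves, in Actl6b and Smarca2 as in markers of several cell types. The summed RPKM of the 9 neuron markers was 194, 82.9 and 156 in NP replicates 1, 2 and 3, with Tubb3 the most abundant, and NP replicate 2 was the lowest of the 3 for all 9 markers. It was also the lowest for 6 of 10 members, Actl6b among them, for 14 of 21 other BAF subunits and for 8 of 14 ATPases of other remodellers. This order is thus not particular to Actl6b and neuron markers, and its share over all genes is not given here. The summed RPKM of 5 crest and fibroblast markers was 12.6, 29.6 and 3.54, with Col1a1 the most abundant, and NP replicate 2 was highest for 4 of 5, as it was for 2 of 10 members, Smarca2 among them. None of these 14 markers had 0 counts in an NP library. NP replicate 2 was also the lowest for 6 of 7 progenitor markers and the highest for 6 of 7 ESC markers, among them Dppa5a at 5.08, 17.2 and 2.58 RPKM, and for 5 of 7 mesoderm and heart markers. Without NP replicate 2, the log2 fold change of Smarca2 was 2.91 and that of Smarcc2 2.1, and both passed the test. The log2 ratio of Actl6b/Actl6a in NPs exceeded that in ESCs by 5.64 without NP replicate 2 and by 4.22 without NP replicate 1. The part of cell type mixture in these values was not tested.

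**Figure D3:**
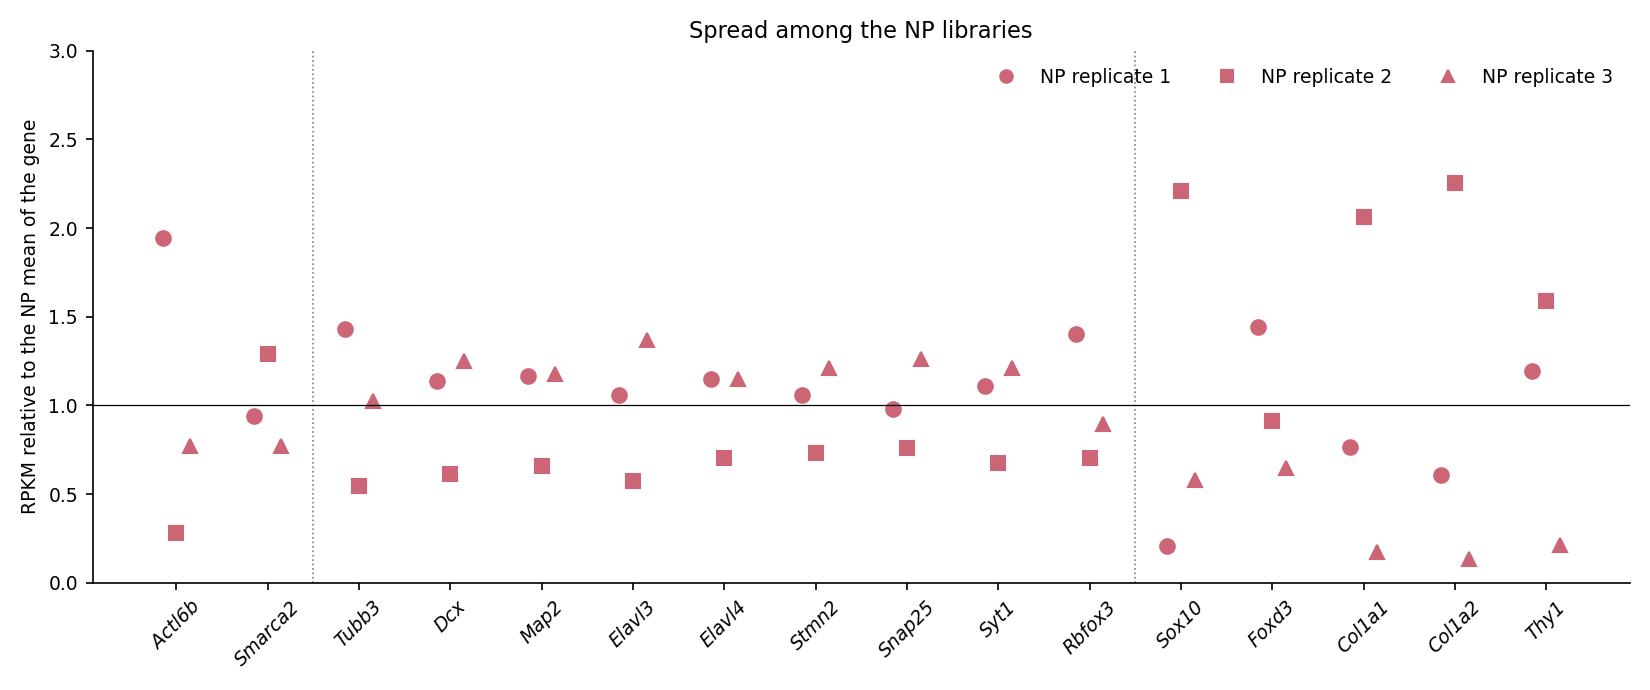
RPKM in each of the 3 NP libraries divided by the mean of the gene over these libraries (y axis, from 0) for Actl6b and Smarca2, 9 neuron markers and 5 crest and fibroblast markers, divided by dotted lines. NP replicate 2 is the lowest for Actl6b and all 9 neuron markers and the highest for Smarca2.

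Known regulators of the exchange were read beside the members. Rest, which encodes a repressor of neuronal genes, read 72.6, 73.7 and 69.9 RPKM in ESCs, 9.31, 10.8 and 8.21 in NPs, and 79.9, 91.6 and 72.0 in TET TKO ESCs. It fell in NPs with a log2 fold change of -2.95 ± 0.12 (adjusted p = 8.66e-07) and had a log2 fold change of 0.05 ± 0.11 in TET TKO ESCs (adjusted p = 0.734). The microRNAs miR-9-3p and miR-124 are known to repress Actl6a in maturing neurons. Mature microRNAs were not measured, but transcripts of host genes were. Mir9-3hg read 0.926, 0.808 and 0.429 RPKM in ESCs and 9.85, 2.67 and 7.46 in NPs, and it rose by 3.2 ± 0.51 on the log2 scale (adjusted p = 0.000654). Mir124-2hg read 0.0234, 0.0457 and 0.0473 RPKM in ESCs and 18.5, 11.2 and 20.1 in NPs, and it rose by 8.68 ± 0.37 (adjusted p = 8.74e-07). Mir124a-1hg, at 2.22, 2.3 and 1.68 RPKM in ESCs and 5.74, 1.84 and 5.08 in NPs, did not pass the test (log2 fold change 1.02 ± 0.39, adjusted p = 0.0478), and its groups overlapped. Mir9-3hg and Mir124-2hg lay below 1 RPKM in every ESC library and were tested only because of their NP levels. All 3 host genes were lowest in NP replicate 2 among the NP libraries. In TET TKO ESCs, Mir124a-1hg read 0.3, 0.746 and 0.278 RPKM (log2 fold change -2.35 ± 0.41, adjusted p = 0.00504, not past the test), tested there only because of its ESC level. Mir9-3hg, not tested there, read 0.14, 0.234 and 0.202, and Mir124-2hg, not tested either, at most 0.00863. All 3 lay below ESCs without overlap in RPKM, as did 19.6% of all genes tested. For Mir124-2hg this rests on 3, 6 and 7 counts in ESCs and 4, 3 and 2 in TET TKO ESCs. These are close to the floor of 3 counts, and no direction is read from them.

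The mature miR-9-3p (RefSeq, GRCm38.p6) is shown with its seed, bases 2 to 8, in capitals, together with the stretch of the Actl6a transcript (GENCODE M21) after the coding sequence that holds the letters AGCTTTA complementary to the seed, also in capitals.
miR-9-3p: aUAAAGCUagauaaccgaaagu
Actl6a: cacctcaacgtctgtAGCTTTAgt
In the 371 bases after the coding sequence of Actl6a these letters occurred 1 time, from base 38, against 2.82% of 15668 transcripts with a region at least as long, read over its first 371 bases. Among the members the letters also occurred 1 time in Smarca2, which rose in NPs, and 2 times in Smarcc1, which did not pass the test. Regions of that length hold them in 8.12% and 20.6% of transcripts. A seed match describes the letters only.

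Beyond the members, 21 other subunits of BAF complexes were read as a list. In NPs all 21 were tested, 9 rose and 1 fell, beside 17.8% and 16.2% of all genes called higher and lower, with a median log2 fold change of 0.64 against 0.03 over all genes tested. The study's call was met by 5 that rose and 1 that fell, beside 12.4% and 9.98% of all genes. Of these, Bcl11a, which encodes a zinc finger subunit of neural BAF, read 0.0856, 0.0764 and 0.0741 RPKM in ESCs and 3.52, 2.12 and 2.54 in NPs (log2 fold change 5.1 ± 0.26, adjusted p = 1.97e-06). Dpf3, a relative of Dpf1, rose by 2.95 ± 0.45 on the log2 scale, and both it and Bcl11a were tested only because of their NP levels. Bcl7a rose by 2.34 ± 0.15, Smarce1 by 1.94 ± 0.18 and Bcl7c by 1.75 ± 0.2. Bicral, a subunit of the noncanonical BAF complex, fell from 35.2, 37.3 and 31.6 RPKM in ESCs to 4.72, 3.2 and 3.14 in NPs (log2 fold change -3.25 ± 0.18, adjusted p = 2.83e-06). Its paralog Bicra read 3.04, 3.28 and 2.6 RPKM in ESCs and 10.9, 7.37 and 7.63 in NPs, and it rose by 1.53 ± 0.19 on the log2 scale (adjusted p = 0.00015). The next lowest log2 fold changes were -0.72 ± 0.13 for Actb (adjusted p = 0.00138) and -0.29 ± 0.12 for Ss18 (adjusted p = 0.0636). The number of 10 subunits past the test was 5 without ESC replicate 1, 6 without ESC replicate 2 and 5 without ESC replicate 3, while the calls over all genes went from 5157 to 2932, 3147 and 3363.

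In TET TKO ESCs, 0 of 18 other subunits tested passed the edgeR test, with a median log2 fold change of 0.26 against 0.02 over all genes. At an unadjusted p under 0.05 there were 8, beside 6280 of 13939 genes. At an adjusted p under 0.001 DESeq2 called 7, beside 2860 of 13939 genes, edgeR without a filter 6, beside 2432 of 33796, and edgeR with a replicate block 2, beside 908 of 13939. The highest log2 fold changes were those of Smarcd2 (1.01 ± 0.15, adjusted p = 0.00253), Smarce1 (0.93 ± 0.11, adjusted p = 0.0012) and Ss18 or Bcl7c (0.75 each, adjusted p = 0.00451 and 0.0142). The lowest was that of Bicral (-0.91 ± 0.16, adjusted p = 0.00467), followed by Bicra (-0.34 ± 0.15, adjusted p = 0.119) and Pbrm1 (-0.25 ± 0.09, adjusted p = 0.071). Smarcd2, the remaining paralog of Smarcd1 and Smarcd3, read 21.0, 21.1 and 25.4 RPKM in ESCs, 18.2, 25.7 and 14.8 in NPs, and 45.2, 43.5 and 59.4 in TET TKO ESCs. Its TET TKO libraries lay above all others, whereas ESCs and NPs overlapped.

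**Figure D4:**
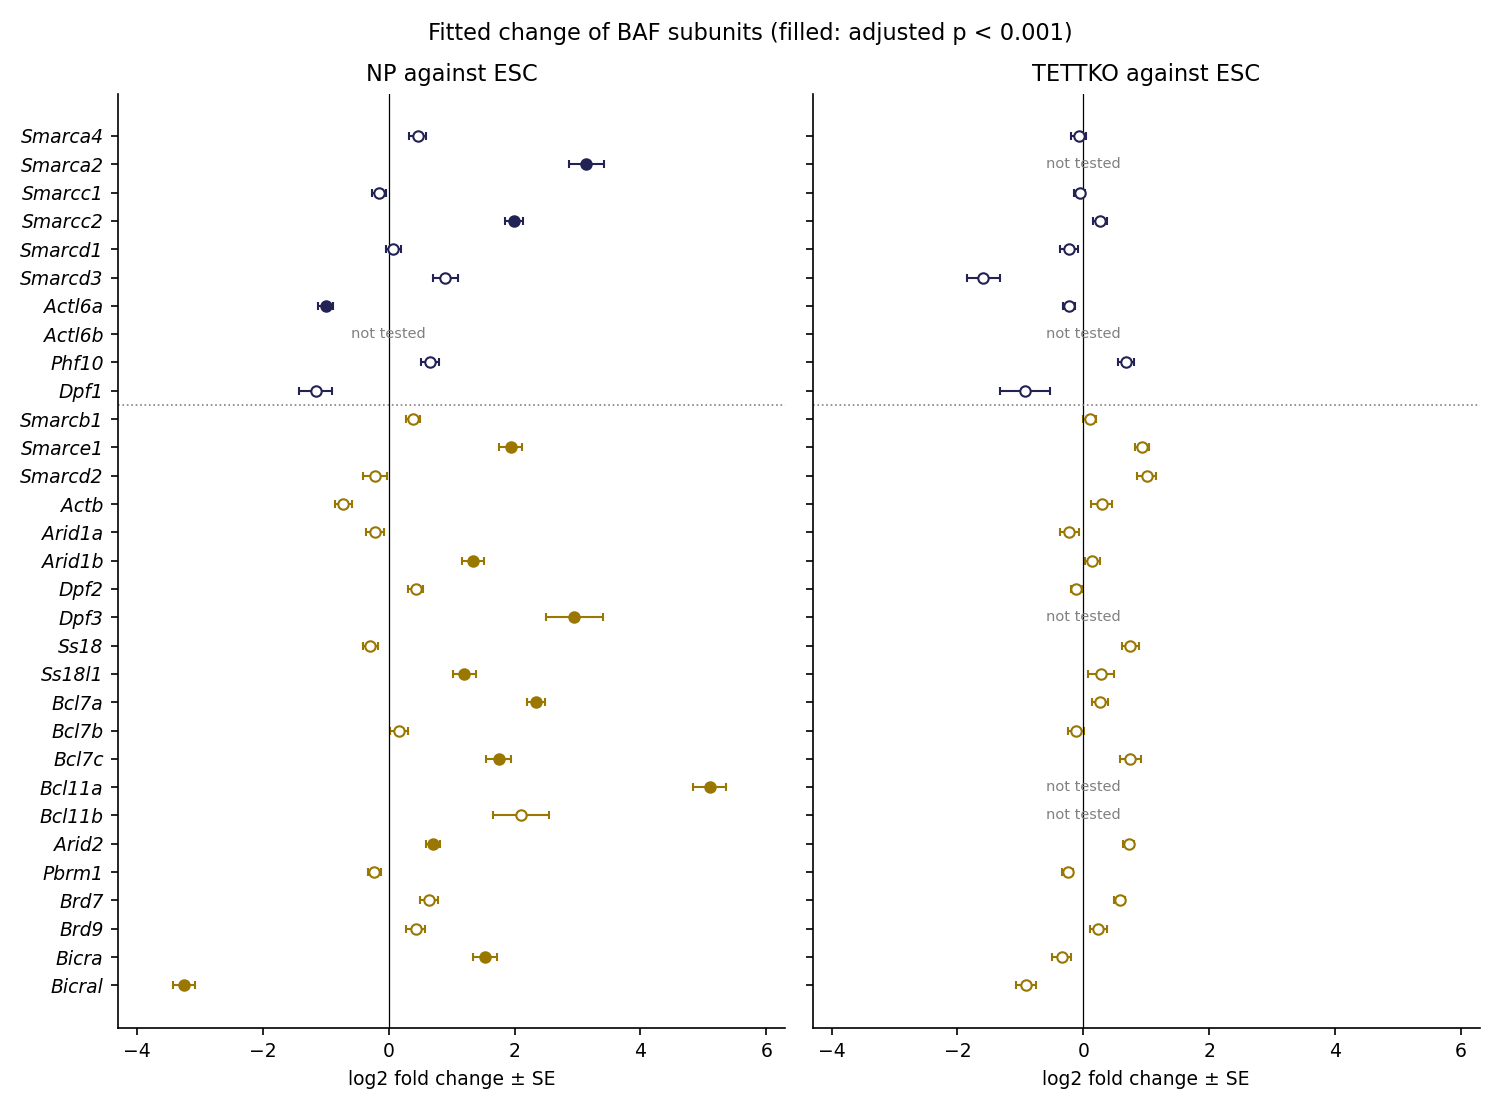
Log2 fold change ± SE (x axis) of the 10 members (above the dotted line) and of 21 other subunits in NPs and in TET TKO ESCs (TETTKO) against the same ESC libraries. Filled points passed an adjusted p of 0.001, and genes below the filter are marked as not tested; in NPs Bcl11a lies highest at 5.1 and Bicral lowest at -3.25, and in TET TKO ESCs no subunit is filled.

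The genes with the pattern most like Actl6b over the 9 libraries, among 15614 genes tested in either comparison, were Gm3764 (Pearson r = 0.989 of log2(RPKM + 0.1)), Ces1d (r = 0.987) and Ttbk1 (r = 0.978). Ces1d had 1.78, 0.226 and 0.911 RPKM in NPs and 0 in each ESC library, with the same order of NP libraries as Actl6b. For Dpf1 they were Dph2 (r = 0.963), Dnph1 (r = 0.962) and Eif2s3x (r = 0.961), each lower in every NP library than in any ESC library. These values describe libraries of 3 groups, in which any gene that differs between the groups scores high.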

How the data were processed

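The authors trimmed single-end reads of a stranded mRNA kit with Trimmomatic 0.38, aligned them to GRCm38 with STAR 2.6.1b and deposited raw counts per gene from featureCounts 1.6.2 (Ensembl 89, counted without strand; reads in exons of more than 1 gene were not assigned). Symbols matched 51633 of 51912 genes. RPKM are from these counts and library sizes scaled by TMM on all genes of all 9 libraries, whereas each fit used the tested genes of its own 6. Groups were compared with edgeR 4.0.16 (quasi-likelihood F-test, R 4.3.3, Benjamini-Hochberg adjustment over all genes tested), for genes with at least 1 RPKM in at least 1 library of the pair of groups. A gene passed the test at an adjusted p under 0.001, and the study's call also asks for a 3-fold change. SE is the log2 fold change divided by the root of F. Paralog ratios used counts + 0.5. The tests were checked on simulated counts. The methods call the replicates biological, and the labels name no cultures, so p-values may measure technical spread only. Replicates of a group differed by more than sampling noise. Alternatives were library sizes alone, DESeq2 1.42.0, no filter, at least 10 counts in every library, all 3 groups in 1 fit, a replicate block, each library left out, an adjusted p limit of 0.05 and 0.1 or 1 added to counts. Named genes are all members, other subunits past the study's call or with the 3 largest rises or falls, Dpf2 as a relative of Dpf1, regulators, TET genes, markers, and the 3 genes most alike to Actl6b and Dpf1. Other remodeller ATPases are named if past the study's call or, in TET TKO ESCs, past the test. Members and lists were chosen with earlier results of these data known. The doubt about NP replicate 2 arose after its values were seen. Methylation tables were not used here. Python 3.11.15, numpy 2.4.6, scipy 1.17.1, pandas 2.3.3 and matplotlib 3.10.9 were used.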

Additional observations from a re-analysis of the deposited data

How the results depend on the processing

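Over the alternatives, Smarca2 and Smarcc2 kept their rise in NPs past an adjusted p of 0.001 in every fit, with log2 fold changes of 2.91 to 3.29 and 1.88 to 2.1. In NPs 3 members passed, against 6 with DESeq2, 6 without a filter and 7 at an adjusted p limit of 0.05, and 2 to 3 when a library was left out. In TET TKO ESCs 0 members passed, against 2 with DESeq2, 1 without a filter and 2 at the limit of 0.05, and with the 3-fold change 0 against 1 with DESeq2 and 1 at the limit of 0.05. Of the other subunits 10 passed in NPs, against 16 at the limit of 0.05 and 5 to 9 when a library was left out; in TET TKO ESCs 0 passed, against 7 with DESeq2, 6 without a filter and 7 at the limit of 0.05. The cause of the differences between tools was not tested; a looser limit calls more genes by construction. Over all genes, calls in NPs went from 5157 to 7471 with DESeq2, 8012 without a filter and 2932 to 4668 with a library left out, and in TET TKO ESCs from 456 to 2860, 2432 and 50 to 506.

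Direction turned for differences close to 0 only. Smarcd1 in NPs was at -0.05 without NP replicate 1 (-0.05 to 0.14 with a library left out), Smarca4 in TET TKO ESCs at 0.04 without a filter and 0.05 without TET TKO replicate 3 (-0.17 to 0.05 with a library left out), and Smarcc1 in TET TKO ESCs at 0.05 without a filter, a setting that moved the median of all genes to 0.12 from 0.02. The cause was not tested. With library sizes scaled as in the fit, chosen after the data were seen, the tested members whose groups do not overlap were 7 in NPs as before and 5 in place of 4 in TET TKO ESCs. Without ESC replicate 3, Smarcd3 was not tested in TET TKO ESCs. No difference in a paralog ratio turned; with a library left out, those in NPs ran from 2.42 to 2.88 for Smarca2/Smarca4, 2.08 to 2.18 for Smarcc2/Smarcc1, 0.75 to 0.97 for Smarcd3/Smarcd1, 4.22 to 5.64 for Actl6b/Actl6a and -2.21 to -1.53 for Dpf1/Phf10.

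Replicate numbers are shared by the groups, and the main fits did not pair libraries by them. The deviations of same-numbered ESC and NP libraries correlated at -0.0555, 0.00879 and -0.123, against -0.0819 to 0.109 for different numbers. Those of ESC and TET TKO libraries correlated at -0.0801, 0.306 and 0.214, against -0.393 to 0.19 for different numbers. Whether these 2 groups are paired is therefore unclear. With a replicate block, 3 members and 8 other subunits passed in NPs, 0 and 2 in TET TKO ESCs. Calls over all genes were 4622 and 908, against 5157 and 456 without it.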

Other observations

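ATPases of 14 other remodellers were read beside the BAF ATPases. In NPs 13 were tested, 2 rose and 4 fell, beside 17.8% and 16.2% of all genes called higher and lower, with a median log2 fold change of -0.47 against 0.03 over all genes. Chd3, a subunit of the NuRD complex, read 4.66, 4.7 and 6.66 RPKM in ESCs and 45.5, 33.9 and 35.8 in NPs (log2 fold change 2.83 ± 0.18, adjusted p = 5.93e-06). Its relative Chd5 read 3.47, 3.08 and 3.79 RPKM in ESCs and 0.206, 0.275 and 0.162 in NPs (log2 fold change -4.02 ± 0.23, adjusted p = 3.23e-06), and was tested only because of its ESC level. Chd7 rose by 2.34 ± 0.17 on the log2 scale, and Hells, a remodeller needed for DNA methylation, fell (log2 fold change -2.12 ± 0.23).

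Ino80 read 45.8, 42.0 and 55.0 RPKM in ESCs, 6.98, 7.94 and 7.87 in NPs, and 20.9, 21.3 and 20.5 in TET TKO ESCs. It fell in NPs (log2 fold change -2.66 ± 0.14, adjusted p = 1.82e-06) and in TET TKO ESCs (log2 fold change -1.31 ± 0.12, adjusted p = 0.000359). The other ATPase of the list past the test in TET TKO ESCs was Atrx, which rose there (log2 fold change 1.46 ± 0.13, adjusted p = 0.000361), beside 1.69% and 1.58% of all genes called higher and lower. Neither met the 3-fold limit there.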
